A study of Mus musculus with 5 samples.

Results

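The transcripts of 10 apolipoprotein genes (Apoa1, Apoa2, Apoa4, Apoa5, Apob, Apoc1, Apoc3, Apoe, Apoh and Apom) were followed in mouse hepatocytes of 5 single-cell libraries, 10 of the 31053 genes counted. All 10 were detected in each library. Dissociated liver cells of C57BL/6J mice had been captured with a 10x v3 kit, after 2-step perfusion and removal of dead cells. The groups were pups at postnatal day 14 (P14), an adult control, and adult mice from which most of the liver had been removed by partial hepatectomy (PHx) at 8 weeks of age, sampled 24, 48 and 96 h later. Pups had no surgery, per the labels. The treatment protocol counts the control library among the operated animals, but its title and source name it a control, and it was used as such. Each group was 1 library, and sex and number of animals are not in the labels. No difference below therefore has a replicate check or a p-value. Intervals are exact 95% intervals, for counting error of levels and ratios, or, for shares of cells, for the sampling of cells within 1 library.

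A barcode was taken as a hepatocyte when it held at least 5000 unique molecular identifiers (UMIs, counted molecules), had 10% to 30% mitochondrial UMIs, and had at least 1% of its UMIs from Alb, Apoa1 and Ttr together. Apoa1 is thus part of the gate. It made up 12.0%, 12.6%, 18.5%, 17.2% and 10.9% of those gate UMIs at P14, in the control and at 24, 48 and 96 h. The gate held 2106 cells at P14 and 925 in the adult control, and after PHx 1170, 719 and 771 cells at 24, 48 and 96 h, in all 5691 of the 14704 barcodes with at least 5000 UMIs. All 9 hepatocyte markers were detected in every library, led by Alb, the serum albumin gene, at 104975 CPM (counts scaled to a library total) at P14 and 29534 CPM in the control. The list includes the gate genes Alb, Apoa1 and Ttr. The gate itself selects for these, so their levels are no independent check of cell identity. CPM here are the summed counts of the gated cells of a library, scaled to 1000000 of their UMIs outside the 13 mitochondrial genes.

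Libraries differed in ways that touch every comparison below. Gated cells had median depths of 38922 UMIs at P14 and 18527 UMIs in the control, and of 19562, 35432 and 22075 UMIs at 24, 48 and 96 h. Empty droplets held on average 1328 UMIs of free RNA in the control library, against 290.0 to 794.8 in the other 4 libraries. A code in the labels also sets the control apart from the other 4 libraries, so the group cannot be told apart from whatever that code marks. At 96 h, 1701 barcodes failed the gate because of more than 30% mitochondrial UMIs, against 363 to 501 elsewhere. Gated barcodes shared between libraries numbered 3 over all pairs. At 48 h, 42.6% of the gated cells held at least 3 of 6 neutrophil markers, against 7.44% at 24 h and at most 1.80% in the other libraries. The 6 markers summed to 197 CPM at 48 h, 106 CPM at 24 h and 10.96 to 30.7 CPM elsewhere. Erythroid markers were spread more widely, with at least 3 of 7 in 6.65% of cells at P14, 76.5% of control cells, and 60.4%, 92.5% and 36.1% of cells at 24, 48 and 96 h. Of the other marker lists, macrophage genes summed to at most 7.66 CPM and B, T or NK and endothelial genes to at most 19.97 CPM each, and the monocyte, plasmacytoid, stellate and cholangiocyte lists were carried mainly by single genes, Fn1, Bst2 or Ly6d, Reln and Sox9, which leaves at most 126 CPM for their other genes. The exception was the stellate list in the control, where Reln gave 2.63 of 6.38 CPM.

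Apolipoproteins are the protein part of lipoproteins, the particles that carry triglyceride and cholesterol in blood. Apob is the large scaffold of very-low-density and low-density lipoproteins and stays with its particle, whereas most other apolipoproteins are small and move between particles. Apoa1 and Apoa2 are the main proteins of high-density lipoprotein (HDL), Apoe is a ligand by which remnants are taken up through receptors, and Apoa5 and Apoc3 favour and restrain the lipolysis of triglyceride. The liver makes most of them, alone or with the gut, and Apoe is also made by macrophages and other cells.

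Of the 10 genes, 6 sit in a pair of clusters. In mm10, with GENCODE M21 annotation, Apoa1 (plus strand), Apoc3 (minus), Apoa4 (plus) and Apoa5 (plus) lie within 43.3 kb on chromosome 9, from 46228580 to 46271919. Apoc1 and Apoe lie within 9.71 kb on the minus strand of chromosome 7, from 19689481 to 19699188. Apoa2 is on chromosome 1, Apoh on chromosome 11, Apob on chromosome 12 and Apom on chromosome 17. Transcript lengths run from 518 bases for Apoa2, 526 for Apoc3 and 532 for Apoc1 to 13934 for Apob.

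The stretches of 150 bases before the start of 4 members are shown because these genes took different courses: Apoa1 and Apoa5 share the chromosome 9 cluster and went opposite ways after PHx, Apob and Apoa5 were the members lower than the control at all 3 times, and Apoe had the widest range over the libraries. The sequences are from RefSeq (GRCm38.p6) and end just before the first base that either RefSeq or GENCODE annotates as transcribed. They are printed in the direction of transcription, with capitals for the motif matches described next. They cover chr9:46228430-46228579 (plus strand) for Apoa1, chr9:46268483-46268632 (plus) for Apoa5, chr12:7977498-7977647 (plus) for Apob and chr7:19699189-19699338 (minus) for Apoe.
Apoa1: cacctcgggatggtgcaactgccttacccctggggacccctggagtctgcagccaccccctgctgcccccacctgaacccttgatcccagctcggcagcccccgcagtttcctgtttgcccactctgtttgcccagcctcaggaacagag
Apoa5: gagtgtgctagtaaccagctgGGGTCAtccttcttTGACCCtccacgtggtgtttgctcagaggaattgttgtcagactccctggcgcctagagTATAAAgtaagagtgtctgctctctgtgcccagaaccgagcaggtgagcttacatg
Apob: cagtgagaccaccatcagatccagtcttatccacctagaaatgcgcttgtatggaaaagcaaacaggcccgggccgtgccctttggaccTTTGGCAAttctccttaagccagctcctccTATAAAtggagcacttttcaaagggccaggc
Apoe: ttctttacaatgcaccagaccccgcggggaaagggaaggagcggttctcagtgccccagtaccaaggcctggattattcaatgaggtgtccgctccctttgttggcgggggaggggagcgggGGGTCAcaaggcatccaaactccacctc

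Of the 10 members, 8 were in the promoter table and 5 had such a stretch outside the annotated transcript. Both strands were searched for TATAAA (the TATA box), AGGTCA and GGGTCA (hexamers bound by nuclear receptors), CCAAT, and TTGCNNAA (a loose pattern that includes the palindrome bound by C/EBP factors). TATAAA began 56 bases before the end of the Apoa5 stretch and 31 bases before the end of the Apob stretch. It occurs in 7.57% of 32851 mouse promoter stretches of the same length. GGGTCA was found in the Apoa5 stretch in both orientations, 129 and 115 bases before its end, and in the Apoe stretch at 28 bases, against 7.20% of all stretches. TTGCNNAA matched in Apob, against 5.46% of all. AGGTCA (8.58% of all) and CCAAT (24.5%) had no match in the 5 stretches, and the Apoa1 and Apoa2 stretches held none of the 5 motifs. The Apoa1 stretch ends 50 bases and the Apob stretch 29 bases before the RefSeq start, whereas the stretches of all promoters end at that start. The bases just before the RefSeq start of Apoa1 were therefore not searched. A match is a run of letters, and binding was not measured here.

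The 10 transcripts together took 8.15% of the non-mitochondrial UMIs of a P14 hepatocyte library, 3.86% in the adult control, and 4.01%, 3.93% and 5.34% at 24, 48 and 96 h. Without Apoa1 these shares were 6.39%, 3.36%, 3.46%, 3.31% and 4.48%. P14 was thus highest and 96 h second, with the control and the earlier PHx times close together. A gene is called higher or lower below when it was at least 2-fold apart on the scale log2(CPM + 1), among genes that reached 5 CPM in either library of the comparison.

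**Figure D1:**
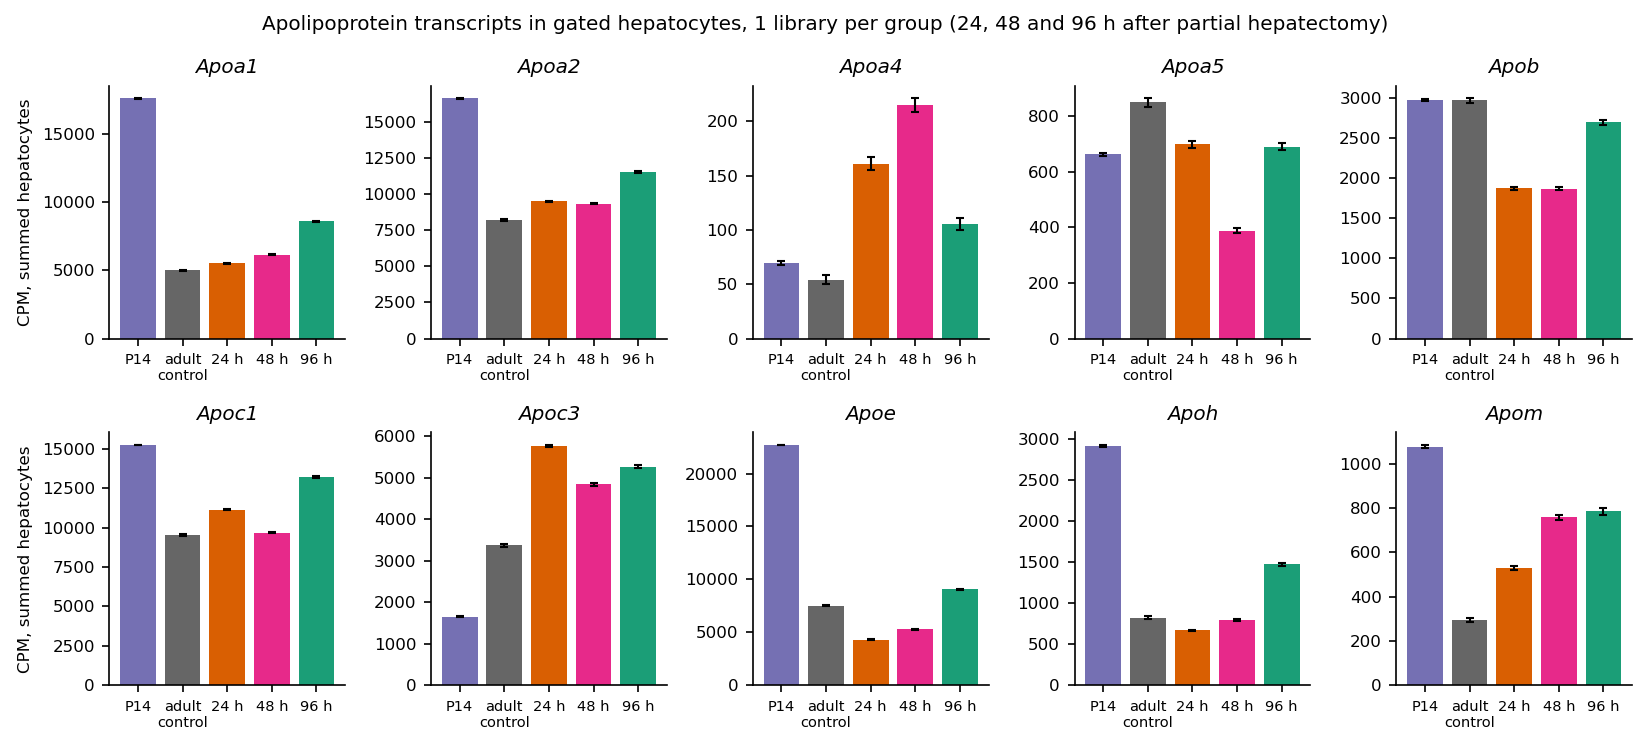
CPM of each apolipoprotein transcript in summed hepatocytes of the 5 libraries (bars, linear axes that start at 0 and differ between panels; whiskers are exact 95% counting intervals). P14 is the highest bar for Apoa1, Apoa2, Apoc1, Apoe, Apoh and Apom, whereas Apoa4 peaks at 48 h (215 CPM), where Apoa5 is lowest (387 CPM).

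Apob, the scaffold of triglyceride-rich particles, measured 2979 CPM at P14, 2971 CPM in the control, 1873 CPM at 24 h, 1866 CPM at 48 h and 2697 CPM at 96 h. The libraries fell into a high trio and a low pair, and the intervals of P14 and control overlapped, as did those of 24 h and 48 h. Against the control, the log2 ratio was -0.67 at 24 h (1.59-fold lower) and -0.67 at 48 h, and -0.14 at 96 h. These differences are beyond counting error but under 2-fold. The place of 96 h depended on the mitochondrial minimum of the gate. With 0% to 30% mitochondrial UMIs the 96 h log2 ratio was -0.62, beside -0.82 at 24 h and -0.75 at 48 h. From 48 h to 96 h the log2 ratio was then 0.14, against 0.53 with the 10% minimum.

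HDL genes followed another course. Apoa1 measured 17580 CPM at P14, 4999 CPM in the control, 5494 CPM at 24 h, 6140 CPM at 48 h and 8583 CPM at 96 h. It was lowest in the control, and P14 was 3.52-fold above it. The 96 h log2 ratio to the control was 0.78, and with 0% to 30% mitochondrial UMIs in the gate 0.55, and with 10% to 20% 0.87. With a gate on Alb and Ttr without Apoa1 the P14 log2 ratio was 1.80, against 1.81 with it. Apoa2, the second protein of HDL, measured 16605, 8212, 9493, 9324 and 11540 CPM in the same order, which gave 2.02-fold at P14 and 1.41-fold at 96 h. After free RNA was subtracted, the P14 log2 ratio of Apoa2 was 0.95 and no longer 2-fold.

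Apom, which carries sphingosine-1-phosphate on HDL, was 1079 CPM at P14, 293.5 CPM in the control, 530.1 CPM at 24 h, 758 CPM at 48 h and 786 CPM at 96 h. All 4 other libraries were above the control. The log2 ratio to the control was 0.85 at 24 h (interval 0.80 to 0.91), 1.37 at 48 h (1.32 to 1.42), 1.42 at 96 h (1.37 to 1.48) and 1.88 at P14 (1.83 to 1.93), so the 2-fold line was passed in the last 3.

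Apoa4, a lipid-responsive protein better known from the gut, was low in every library: 69.3 CPM at P14, 54.0 CPM in the control, 161 CPM at 24 h, 215 CPM at 48 h and 105 CPM at 96 h. Against the control it was 2.94-fold higher at 24 h, 3.93-fold at 48 h and 1.93-fold at 96 h, with log2 ratios of 1.56 (1.46 to 1.69), 1.97 (1.88 to 2.11) and 0.95 (0.83 to 1.09). With each cell given equal weight the 96 h value was 1.03, past the 2-fold line. Between 48 h and 96 h the log2 ratio was -1.02 (-1.12 to -0.95), and 6 of 12 other settings put this difference under 2-fold. P14 was 1.28-fold above the control. Apoa4 was the member with the largest ratio at both 24 h and 48 h. From 24 h to 48 h its log2 ratio was 0.42, but -0.22 with 10% to 20% mitochondrial UMIs in the gate, so the highest library changed with that setting.

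Apoa5, its neighbour in the cluster, went the other way. Its levels were 662 CPM at P14, 848 CPM in the control, 697 CPM at 24 h, 387 CPM at 48 h and 690.0 CPM at 96 h. The control was highest and 48 h lowest, 2.19-fold below the control (log2 ratio -1.13, -1.17 to -1.09), while the intervals of 24 h and 96 h overlapped. From 24 h to 48 h it differed by -0.85 on the log2 scale and from 48 h to 96 h by 0.83. With 0% to 30% mitochondrial UMIs in the gate, its log2 ratio to the control was -0.71 at 96 h (-0.30 with the 10% minimum). At 24 h that ratio was -0.38 (-0.28), and from 48 h to 96 h the difference was 0.46.

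Apoc1, a small protein that slows remnant uptake, ranged only from 9514 CPM in the control to 15247 CPM at P14, with 11137 CPM at 24 h, 9668 CPM at 48 h and 13230 CPM at 96 h. Its log2 ratios to the control were 0.68 at P14, 0.23 at 24 h, 0.02 at 48 h and 0.48 at 96 h. Apoc3 measured 1644 CPM at P14, 3368 CPM in the control, 5764 CPM at 24 h, 4840 CPM at 48 h and 5265 CPM at 96 h. P14 was its lowest library, 2.05-fold under the control, and the PHx libraries were 1.44-fold to 1.71-fold above the control. The P14 difference of -1.03 on the log2 scale was -0.69 with TMM factors, which scale libraries by a trimmed mean of gene ratios. It was also under 2-fold with mitochondrial UMIs in the total, and with 10% to 20% mitochondrial UMIs in the gate. Apoa5, in the same cluster, had a P14 log2 ratio of -0.36, under 2-fold, whereas Apoa1, the direct neighbour of Apoc3, was higher.

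Apoe measured 22705 CPM at P14, 7505 CPM in the control, 4286 CPM at 24 h, 5271 CPM at 48 h and 9067 CPM at 96 h. It had the widest span of the members, 5.30-fold between P14 and 24 h. Against the control it was 1.75-fold lower at 24 h and 1.42-fold lower at 48 h, and 3.02-fold higher at P14. From 48 h to 96 h the log2 ratio was 0.78, and 0.51 with 0% to 30% mitochondrial UMIs in the gate. Against the control the 96 h log2 ratio was 0.27, 0.04 with 0% to 30% and 0.38 with 10% to 20%.

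Apoh, beta-2-glycoprotein I, which binds anionic phospholipid, measured 2923 CPM at P14, 821 CPM in the control, 666 CPM at 24 h, 791 CPM at 48 h and 1473 CPM at 96 h. P14 was 3.56-fold above the control and 96 h was 1.79-fold above it. The 96 h log2 ratio was 0.84 with the 10% mitochondrial minimum of the gate, 0.54 with 0% to 30% and 1.01 with 10% to 20%. At 48 h the log2 ratio was -0.05, and it was 0.03 with TMM factors.

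**Figure D2:**
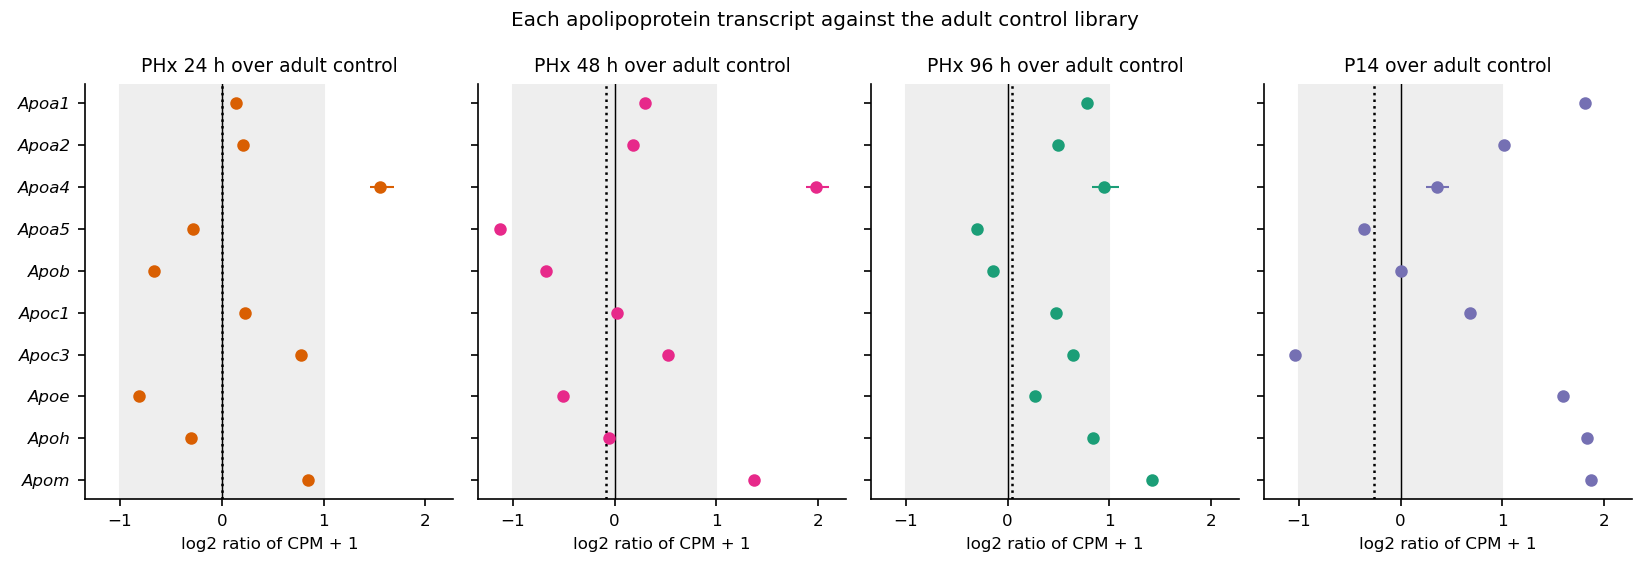
Log2 ratio of CPM + 1 of each member against the adult control (points; whiskers are exact 95% counting intervals, mostly narrower than the points; grey marks less than 2-fold; the dotted line is the median of all genes of at least 5 CPM). Apoa4 stands rightmost at 24 h (1.56) and 48 h (1.97) and Apom at 96 h (1.42), while at P14 5 members lie right of the grey band and Apoc3 (-1.03) left of it.

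Counted together, 1 of 10 members (Apoa4) was called higher at 24 h and 0 lower, where 8.51% of 9028 genes were called higher and 7.13% lower. At 48 h, 2 were higher (Apoa4 and Apom) and 1 lower (Apoa5), against 8.30% and 7.63% of all genes. At 96 h, 1 was higher (Apom) and 0 lower, against 4.07% and 1.88%. At P14, 5 were higher (Apoa1, Apoa2, Apoe, Apoh and Apom) and 1 lower (Apoc3), against 7.89% and 13.8% of 9011 genes. From 24 h to 48 h 0 members were called either way, where 1.78% of genes were higher and 1.76% lower. From 48 h to 96 h 0 were higher and 1 lower (Apoa4), where 4.38% were higher and 4.24% lower. The shares called at 24 h and 96 h are thus near the background for 10 genes, and P14 has the largest share. The 4 comparisons with the control share that library. Without cells that held at least 3 neutrophil markers, the 48 h log2 ratios were 1.99 for Apoa4, 1.36 for Apom and -1.07 for Apoa5, and the counts of members were the same at each time. The share of all genes called was not counted in that setting.

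The median log2 ratio over the 10 members was 0.17 at 24 h, 0.10 at 48 h, 0.57 at 96 h and 0.85 at P14, beside medians over all genes of -0.00086, -0.08, 0.04 and -0.26. At P14 the scaling matters: all genes were shifted by -0.26, and relative to that shift the members' median was 1.11. With TMM factors the median of all genes at P14 was 0.08 and the members' median 1.19. In that setting 6 members were higher (Apoc1 joined at 1.02) and 0 lower, against 12.8% and 7.64% of 9121 genes. The share of called genes that were higher at P14 went from 36.3% to 62.6% with those factors. From 24 h to 48 h the members' median was 0.08 (all genes -0.07), and -0.059 with 10% to 20% mitochondrial UMIs in the gate. From 48 h to 96 h it was 0.47 (all genes 0.11), with 9 of 10 members above 0. The share of all genes above 0 was not counted. Apom (0.05) fell below 0 with TMM factors and, at -0.21, with 0% to 30% mitochondrial UMIs. That range gave 0.23 for Apoa1, 0.51 for Apoe and 0.60 for Apoh. With 10% to 20% they were at 0.71, 1.02 and 1.16.

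Related genes of lipoprotein metabolism were read from 8 lists of 86 genes in all, each described by counts of at least 2-fold against the control. These counts are to be read against all genes: 8.51% were higher and 7.13% lower at 24 h, 8.30% and 7.63% at 48 h, 4.07% and 1.88% at 96 h, and 7.89% and 13.8% at P14. The lists were also counted at P14 with TMM factors, a setting added after the data were seen, and the counts that changed are given with each list. Those counts are to be read against the shares with TMM factors, 12.8% of 9121 genes higher and 7.64% lower. Of 7 measured other apolipoproteins, 1 was higher and 1 lower at 24 h, 2 higher at 48 h, 1 higher at 96 h, and 2 higher and 3 lower at P14. The 3 lower at P14 were Apon (157 CPM against 674 CPM in the control), Apol9a (5.25 against 70.4 CPM) and Apol9b (14.1 against 120.4 CPM); the last pair are close copies whose counts may be split uncertainly. The higher ones included Apoc2, the activator of lipoprotein lipase, at each PHx time, and Apoc4 at 48 h and P14; both were named after their values were seen. Apoc2 reached at most 19.0 CPM and is uncertain, because an annotated read-through gene, Gm44805, overlaps Apoc4 and Apoc2 on the same strand.

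Lipoprotein assembly had 14 measured genes, with 1 higher and 1 lower at 24 h, 0 and 1 at 48 h, 0 and 0 at 96 h, and 1 and 1 at P14. Dgat2, which makes the triglyceride that is loaded on particles, was 338 CPM in the control, 161 CPM at 24 h, 132 CPM at 48 h, 258 CPM at 96 h and 321 CPM at P14. Like Apob it was low at 24 h and 48 h, with log2 ratios of -1.06 and -1.35. Tm6sf2, a lipidation factor, was 16.6 CPM in the control and 46.1 CPM at 24 h, 34.1 CPM at 48 h, 30.1 CPM at 96 h and 53.7 CPM at P14. Pdia3, a chaperone, had a log2 ratio of -1.17 at P14, and of -0.83 with TMM factors, which left 0 of the list lower.

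Of the 4 genes of Apob messenger editing, 1 was lower at 48 h and at P14 and 0 were called at 24 h and 96 h. It was Rbm47, with 162 CPM in the control, 93.6 CPM at 24 h, 75.2 CPM at 48 h, 126 CPM at 96 h and 44.55 CPM at P14. A1cf and Syncrip, other editing cofactors, stayed between 20.6 and 38.2 CPM and between 42.9 and 73.9 CPM.

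HDL formation and remodelling had 7 measured genes. At P14, 3 were higher and 2 lower, and at 24 h 0 and 2, with 0 called at 48 h and 96 h. With TMM factors 4 were higher and 1 lower at P14, where 12.8% of all genes were higher and 7.64% lower. Lcat, which esterifies cholesterol on HDL with Apoa1 as cofactor, was 377 CPM at P14 and 133 CPM in the control (log2 ratio 1.498). Pon1, an HDL-bound esterase, had a P14 log2 ratio of 1.66, and Lipc, hepatic lipase, ratios of 2.08 at P14 and -1.33 at 24 h.

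Of 6 measured genes of lipase control, 1 was higher and 2 lower at 24 h, 0 were called at 48 h, and 3 were higher and 1 lower at 96 h. At P14, 2 were higher, and 4 with TMM factors, where 12.8% of all genes were higher. Lpl, lipoprotein lipase, was 14.4 CPM in the control, 5.79 CPM at 24 h, 25.6 CPM at 48 h, 92.5 CPM at 96 h and 1046 CPM at P14. Angptl8, a fed-state regulator of lipoprotein lipase, was highest at 96 h, at 80.7 CPM against 22.5 CPM in the control.

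Uptake genes had 7 measured members in the PHx comparisons, with 1 higher at 24 h and 0 at the later times, and 8 at P14 with 1 higher and 2 lower. Sdc1, a remnant-binding syndecan, was 452 CPM at 24 h against 177 CPM in the control. Among 16 measured regulators, 4 were lower at 24 h, 4 lower at 48 h and 0 called at 96 h. At P14, 2 were higher and 2 lower. With TMM factors these counts were 3 and 0, against 12.8% and 7.64% of all genes. The 4 of 16 lower at 24 h and at 48 h are a larger share than over all genes. Cebpa, a C/EBP factor, was 352 CPM in the control, 72.5 CPM at 24 h, 81.2 CPM at 48 h, 263 CPM at 96 h and 165 CPM at P14, where its log2 ratio was -1.09, and -0.75 with TMM factors. Mlxipl, the carbohydrate-responsive factor, had log2 ratios of -1.69 at 24 h and -1.35 at 48 h, and Ppara, the fatty-acid receptor, -1.21 and -1.40.

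Of 17 other secreted liver proteins, 7 were higher at P14 and 1 lower, with a median log2 ratio of 0.76. Without Alb and Ttr, which the gate uses, 5 of 15 were higher and 1 lower, with a median of 0.60; this pair was left out after the data were seen. With TMM factors 9 of the 17 were higher, where 12.8% of all genes were. Ahsg, fetuin-A, was 40074 CPM at P14 against 4986 CPM in the control, and Ttr, transthyretin and part of the gate, 23981 CPM against 5010 CPM. Serpina1e, of a family of close copies, was 173 CPM against 13135 CPM. After PHx, 1 of the 17 was higher and 1 lower at 24 h, 3 higher at 48 h and 1 higher at 96 h, which was Ttr of the gate, with a log2 ratio of 1.19.

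Single cells were compared after each was thinned to 3500 non-mitochondrial UMIs, which every gated cell reached. Apob was the most even member in the 4 adult libraries, and at P14 Apoc1 (21.0%) was more even. The spread of Apob over cells, given as the coefficient of variation left after counting error, was 24.7% at P14, 22.0% in control cells, 21.6% at 24 h, and 22.1% at both 48 h and 96 h. The median cell held 10 Apob UMIs at P14 and in the control, 6 at 24 h and 48 h, and 9 at 96 h. At 24 h and 48 h the 10th percentile (3 UMIs at both times, 5 in the control) and the 90th percentile (10 and 11 UMIs, 15 in the control) were lower as well as the median.

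Apoa4 was the most uneven, with spreads of 176% at P14 and 112% in control cells, and of 76.3%, 112% and 72.3% at 24, 48 and 96 h. Single cells of high count weigh on these values. The largest thinned count was 14 UMIs at P14 and 4 in the control, beside means of 0.23 and 0.21. The median (0) and the 90th percentile (1 UMI) were the same in both, so the P14 spread need not describe most cells. A UMI of Apoa4 was seen in 17.8% of thinned hepatocytes at P14 (exact binomial interval 16.2% to 19.5%), 16.8% in the control (14.4% to 19.3%), 37.8% at 24 h, 42.4% at 48 h and 30.4% at 96 h. Before thinning, these shares were 70.6%, 44.3%, 72.8%, 83.0% and 68.5%. In 77 to 643 T or NK barcodes per library, which should lack it, thinned the same way from median depths of 4960 to 7841 UMIs, the share was 1.299% to 2.73%. The hepatocyte shares were above those of T or NK barcodes in every library, in the same order of libraries as the CPM. Neutrophil-like barcodes at 48 h were an exception among the other classes: 17.5% of 268 held Apoa4 (13.2% to 22.6%), at 1.46 times its free RNA level. All 10 members were high in that class, at 36.1% (Apoa2) to 52.4% (Apoa5) of their CPM in hepatocytes. The 17.5% of barcodes with Apoa4 is near the hepatocyte shares at P14 and in the control, and below the 42.4% of hepatocytes at 48 h.

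Apoa1 was even at P14 (30.5%) and less so in the control (61.0%), with 43.1% at 24 h, 34.8% at 48 h and 39.8% at 96 h. The median cell held 15 Apoa1 UMIs in the control and 57.5 at P14. Apoa2 had a long upper tail in the control, where the mean over cells was 7612 CPM but the median cell had 5684 CPM. The summed value of 8212 CPM gives deeper cells more weight. The spread of Apoa2 was 58.9% in the control against 28.8% at P14. Apoe had a spread of 58.3% in control cells, 34.2% at P14, and 47.1%, 33.8% and 52.9% at 24, 48 and 96 h. Apom was at 0 in 42.9% of thinned control cells and in 23.7% at 24 h, 10.99% at 48 h, 11.3% at 96 h and 4.18% at P14. Apoa5 was at 0 in 6.59% of control cells and 32.1% of cells at 48 h.

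**Figure D3:**
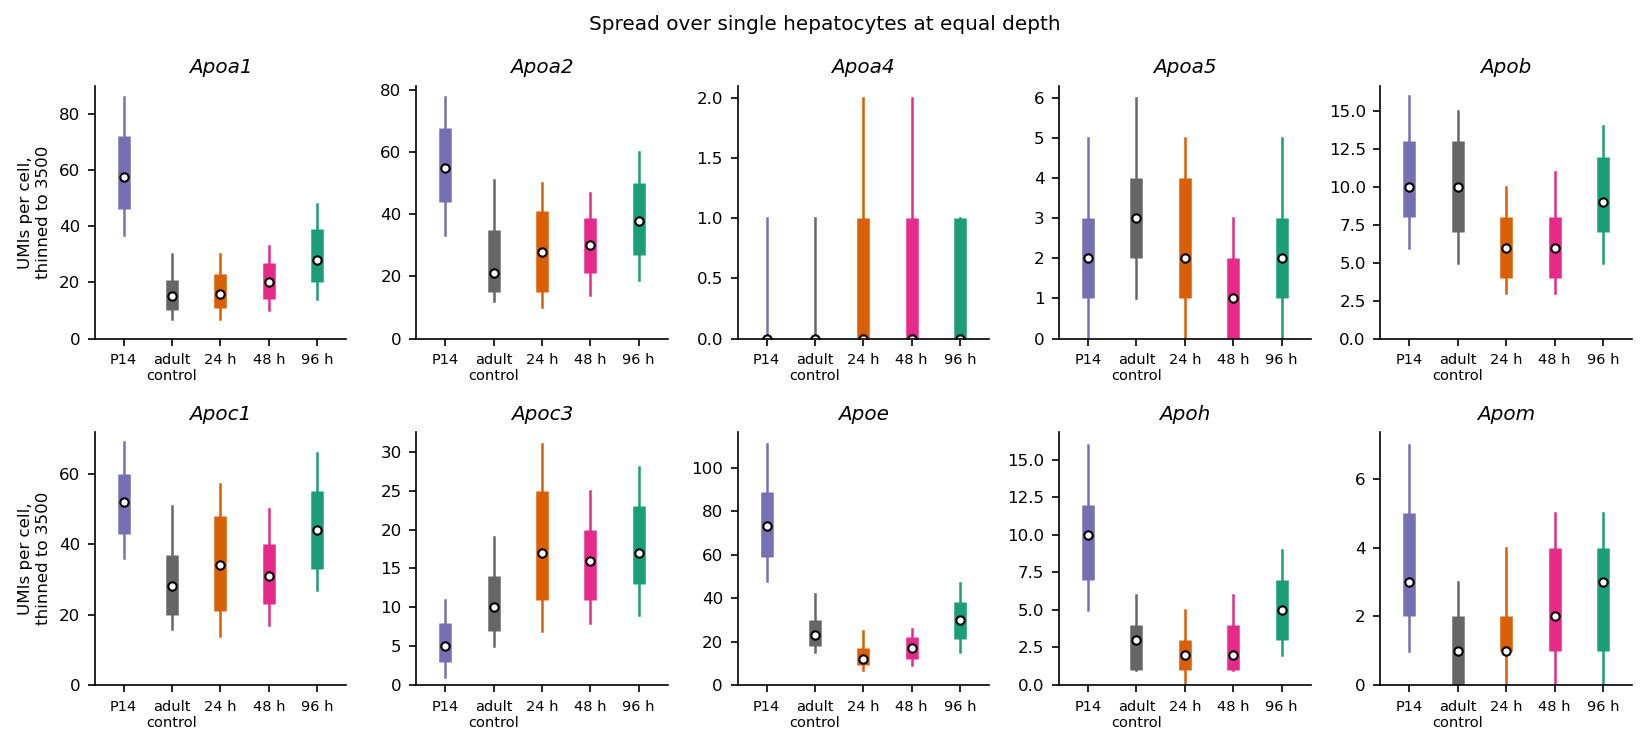
UMIs per hepatocyte after each cell was thinned to 3500 UMIs (circles are medians, thick lines the middle 50% of cells, thin lines the 10th to 90th percentile; axes differ between panels). Apob keeps a narrow range that sits lower at 24 h and 48 h (median 6) than in the control (median 10), and the median of Apoa4 is 0 in all 5 libraries.

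Across the cells of a library, the thinned counts of the members correlated only loosely. Counting error was not removed here, and it lowers the correlation most for members of few UMIs. Apoa4, for example, had a mean of 0.21 thinned UMIs in the control and 0.77 at 48 h. Low values therefore need not mean that the transcripts vary independently. Over the 45 pairs the median Pearson correlation of thinned counts was 0.16 at P14, 0.13 in control cells, and 0.10, 0.06 and 0.08 at 24, 48 and 96 h. Apoa1 and Apoe were the closest pair at P14 (0.66) and in the control (0.71), and Apoa2 and Apoc1 after PHx (0.76, 0.68 and 0.66). Cells of a library share its free RNA and preparation, and these values are descriptions. Members also differed with depth inside a library: in the deeper cells of the control, split at the median, Apoc1 was higher by 0.54 and Apoa2 by 0.47 on the log2 scale, and at 24 h Apoa2 by 0.67, Apom by 0.55 and Apoc1 by 0.48.

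Position in the liver lobule was read from a score, portal minus central zone UMIs of 10 genes each, and the outer terciles of cells were compared in each library. Terciles cut a continuous range and are not cell types. They were cut within each library, and the portal tercile began at a score of 31 in the control, 16, 6 and 25 at 24, 48 and 96 h, and 13 at P14, so like-named terciles of different libraries need not be the same position. Apoa4 was 25.7 CPM in central and 90.5 CPM in portal cells of the control, 81.9 and 245 CPM at 24 h, 79.1 and 385 CPM at 48 h, 47.3 and 174 CPM at 96 h, and 55.4 and 82.0 CPM at P14. Its portal-over-central log2 ratio was 1.78 in the control, 1.57, 2.27 and 1.86 after PHx and 0.56 at P14. Portal cells were higher in every library, and at each PHx time central, middle and portal cells were all above the like-named tercile of the control, by log2 ratios of 0.85 to 2.08. At P14 the central cells were above those of the control by 1.08, while in portal cells the intervals overlapped (78.3 to 85.9 CPM at P14, 81.5 to 100.1 CPM in the control).

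Apoa5 was also portal. It was 704 CPM in central and 948 CPM in portal cells of the control, 474 and 921 CPM at 24 h, 268 and 509 CPM at 48 h, 462 and 952 CPM at 96 h, and 442 and 943 CPM at P14. Portal levels at P14, 24 h and 96 h were within 0.05 of the control on the log2 scale, whereas central cells (-0.67, -0.57 and -0.61) and middle cells (-0.59, -0.40 and -0.34) were below it. At 48 h all terciles were lower, by -1.39, -1.26 and -0.90 from central to portal.

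Apoc3 leaned to the portal side at P14 (0.65) and 96 h (0.43) and by 0.23 or less elsewhere. Apob was below the control by -0.61 to -0.75 in each tercile at 24 h and 48 h. For the other 6 members the ratio lay between -0.30 and 0.37 in all libraries. The median over members was -0.14 at P14, 0.21 in control cells, and 0.28, 0.12 and 0.18 at 24, 48 and 96 h, beside 0.06, -0.06, -0.05, 0.05 and -0.13 over all genes. Depth differed between the terciles most at 96 h, with median depths of 18603 UMIs in portal and 26035 UMIs in central cells, and its part in these ratios was not tested.

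**Figure D4:**
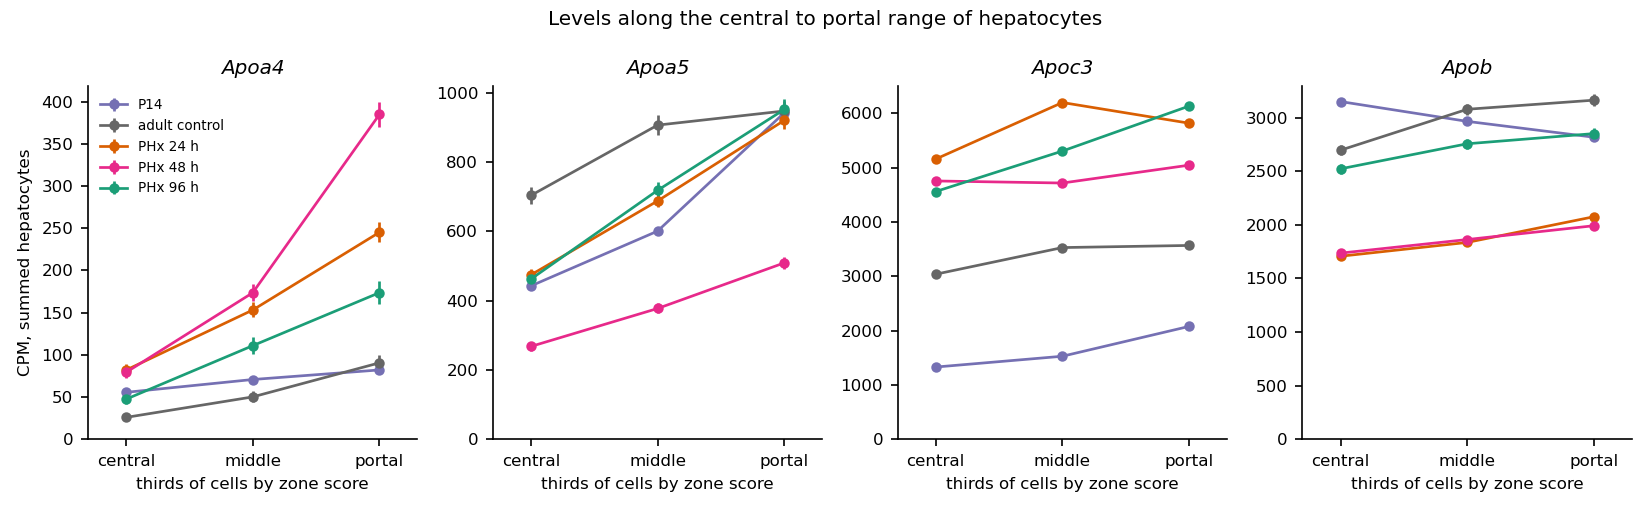
CPM of Apoa4, Apoa5, Apoc3 and Apob in the central, middle and portal tercile of hepatocytes of each library (points with exact 95% counting intervals, lines join the terciles of a library, axes start at 0). Apoa4 climbs toward portal cells in all 5 libraries, to 385 CPM at 48 h, and the Apoa5 lines of P14, 24 h and 96 h meet the control line at the portal end (921 to 952 CPM).

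Dividing hepatocytes, with UMIs of at least 3 of 24 mitosis genes after thinning, were compared with cells that held none. There were 242 dividing and 1579 other cells at P14, 154 and 740 at 24 h, 289 and 303 at 48 h, and 68 and 568 at 96 h; the control had 5 dividing cells and is not compared. The median log2 ratio over members, dividing over non-dividing, was -0.28 at P14, -0.13 at 24 h, -0.13 at 48 h and -0.29 at 96 h, whereas the median over all genes was 0.24, 0.14, 0.21 and 0.21.

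Apoa5 differed most after PHx. It was lower in dividing cells by -0.76 at 24 h, -0.88 at 48 h and -1.02 at 96 h, but by -0.12 at P14. Apoa4 was lower by -0.97 at 96 h, by -0.42 at 24 h and by -0.22 at P14. At 48 h its value was -0.07, with an interval that holds 0 (-0.17 to 0.027), and with at least 5 mitosis genes it was -0.24 (-0.35 to -0.14). Apob was lower in all 4 libraries, by -0.23 to -0.38, and Apoh by -0.29 to -0.40. Apoa1 was lower by -0.12 to -0.61. Apoa2, Apoc1 and Apom lay between -0.30 and 0.06. Dividing cells were deeper after PHx, with median depths of 24082 against 19319 UMIs at 24 h, 41895 against 32173 UMIs at 48 h and 29028 against 21030 UMIs at 96 h, and the part of depth was not tested.

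Outside the gate, barcodes of at least 1000 UMIs with at least 3 markers of a class were read against free RNA, the profile of empty droplets. T or NK cells give the background: there Apoe stood at 24.3% of its free RNA level in the control and the other 9 members at a median of 23.8%, with 17.3% and 17.9% at 24 h, 7.20% and 6.60% at 48 h, and 15.1% and 15.6% at 96 h. At P14 the values were 23.6% for Apoe and 12.6% for the others, in 78 barcodes.

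Monocyte-like barcodes differed from this. Apoe stood at 64.6% of free RNA in the control library, and at 55.2%, 19.5% and 13.2% at 24, 48 and 96 h, with the other members at medians of 16.0%, 7.75%, 3.53% and 8.26%. At 96 h Apoa4, at 16.0%, was above Apoe, but it rested on 4 UMIs against 570 of Apoe. The remaining members were below Apoe. In the first 3 libraries the highest other member was at 17.9% (Apoa4, 1 UMI), 11.6% (Apom, 19 UMIs) and 5.44% (Apoa5, 11 UMIs). These classes held 27, 49, 56 and 37 barcodes. The level was uneven over barcodes: after thinning, 26 of 54 monocyte-like barcodes at 48 h held Apoe (mean 3.11 UMIs) and 27 of 54 held Apoc1 (mean 1.02), and at 24 h 29 of 41 held Apoe (mean 8.59) and 34 of 41 Apoc1 (mean 3.81). Counted directly, Apoe gave 6.82, 6.95, 5.41 and 1.80 UMIs per Apoa1 UMI in them, against 1.71, 1.06, 0.98 and 1.19 in free RNA.

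B-like barcodes also held Apoe above every other member, at 50.8% in the control library and 5.74% at P14, where the highest other member was at 35.7% and 4.82%. At 24, 48 and 96 h Apoe was at 66.4%, 31.2% and 30.4%, and the highest other member at 44.3%, 11.1% and 25.3%. Endothelial-like barcodes, of 44 to 181 per library at median depths of 1836 to 2960 UMIs, held Apoe at 159% in the control and 38.7% to 70.1% in the other libraries, above every other member except at 96 h, where the highest was 81.1%. The other members were at a median of 94.7% of free RNA in control endothelial-like barcodes, and at 15.3% to 53.8% elsewhere. The control class was thus near the free RNA level, and the minimum of 1000 UMIs for a barcode lies below the mean of 1328 UMIs of an empty control droplet. Macrophage, stellate and cholangiocyte classes had under 20 barcodes in every library and are not given.

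**Figure D5:**
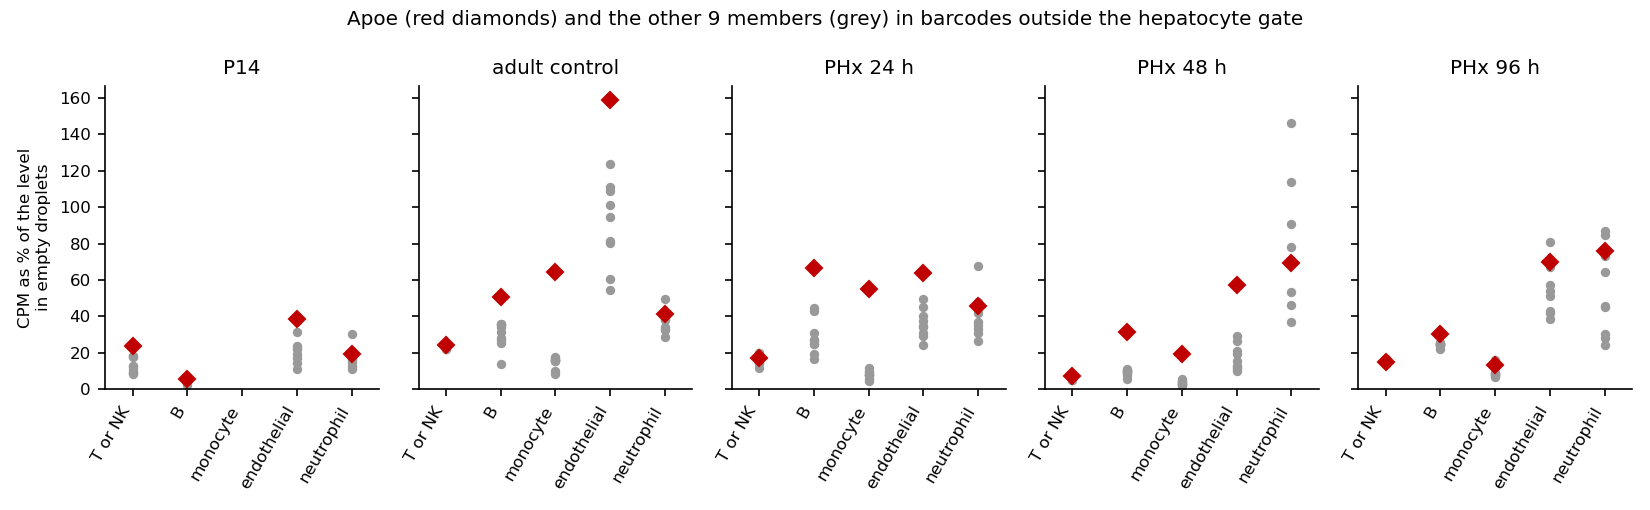
Level of Apoe (red diamonds) and of the other 9 members (grey points) in barcodes of 5 classes outside the hepatocyte gate, as a percent of the level in empty droplets of the same library (linear axis shared by the panels; no monocyte class at P14). In monocyte-like barcodes Apoe lies above the grey points in the control (64.6%), at 24 h (55.2%) and at 48 h (19.5%), and in T or NK barcodes it lies among them except at P14.

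Hepatocytes themselves were not equally far above free RNA for all members. Apoa4 was 2.39-fold to 3.67-fold higher in hepatocytes than in empty droplets in all 5 libraries. Apoa1 was 1.47-fold to 2.79-fold higher, but it is part of the gate, so the selection itself favours a higher level in these cells. Apoc1 was at 0.81 of the free RNA level at P14, 0.92, 1.02 and 0.67 of it at 24, 48 and 96 h, and 2.065 in the control, and Apoa2 was at 0.78 at 96 h and 1.18 to 1.91 elsewhere. For Apob the ratio was 0.63 in the control and 1.605 to 2.29 elsewhere. A CPM ratio compares shares of RNA, and these values do not tell the source of the free RNA.

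By a rule on profiles alone, the genes most like each member that spanned at least 2-fold over the 5 libraries were taken from 3378 genes of at least 50 CPM, by the distance between centred log2(CPM + 1) profiles over 5 libraries. Nearest to Apoa1 were Mpc1 (distance 0.27), Akr1c20 (0.28) and Acadl (0.28), and nearest to Apoa2 were Sin3b (0.13), Bckdhb (0.19) and N4bp2l2 (0.21). Apoa4 was closest to Lsm5 (0.22), Pgp (0.24) and Crip2 (0.25), and Apoa5 to Etfrf1 (0.18), Ugp2 (0.20) and Paics (0.28). For Apoc3 they were Ywhaz (0.26), Fdft1 (0.26) and Acat2 (0.30), for Apoe Bdh1 (0.28), Fabp2 (0.34) and Acadvl (0.36), for Apoh Afm (0.28), Fabp2 (0.30) and Eci1 (0.31), and for Apom Etfb (0.24), Tceal8 (0.35) and Idh2 (0.37). Bdh1, for example, had 595 CPM at P14, 155 CPM in the control, 100.5 CPM at 24 h, 116 CPM at 48 h and 189 CPM at 96 h, the order of libraries that Apoe showed. Fabp2 was listed for both Apoe and Apoh. Likeness over 5 points is a description of these libraries.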

How the data were processed

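The authors deposited 1 sparse matrix of raw UMI counts for each of 5 libraries, with 31053 genes and 6794880 barcodes. Software version 3.0.2 is named in the matrices, per the file headers. Per the submitters' processing notes, bcl2fastq 2.17.1.14, Cell Ranger, Seurat 3.1 and mm10 were used, with no role given. Total depth was 80927744 to 136110607 UMIs per library. Intervals of levels and ratios cover counting error only, and those of ratios were computed without the pseudocount. Intervals of shares of cells take the cells of a library as independent draws.

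Gated hepatocytes were summed per library and scaled to CPM without the 13 mitochondrial genes. Log2 ratios used a pseudocount of 1 CPM, and calls needed at least 2-fold among genes of at least 5 CPM. Ratios, their intervals and thinning were tested on simulated data. Free RNA was the mean of barcode ranks 20001 to 60000. Barcodes outside the gate with at least 1000 UMIs were put in the class with the most markers, at least 3. Hepatocyte and erythroid markers were not counted against a class; this differs from the rule first written. Doublets were left in. As an alternative, the highest Scrublet scores (scanpy 1.11.5) were removed at 0.8% per 1000 barcodes. TMM factors came from edgeR 4.0.16.

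Named genes were the 10 members, at most 3 genes per list with the largest ratio among those of at least 20 CPM, and 3 nearest profiles per member that spanned at least 2-fold; Apoc2 and Apoc4 were added, and some genes that this rule names are not reported here. The members and lists were chosen with earlier results of these data known. Python 3.11.15 with scipy 1.17.1 was used. Sequences are from RefSeq GRCm38.p6 and positions from GENCODE M21. Sex, the number of animals and protein sequences were not analysed here.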

Additional observations from a re-analysis of the deposited data

Results flagged for a closer look

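The gate leaves out barcodes with hepatocyte transcripts but few mitochondrial UMIs, and in these Apoa2, Apoc1 and Apoc3 were higher than in gated cells at 24 h and 48 h after PHx. Barcodes of at least 5000 UMIs, at least 1% Alb, Apoa1 and Ttr, and under 5% mitochondrial UMIs numbered 144 in the control and 105 at P14, and 307, 160 and 639 at 24, 48 and 96 h. Against the gated hepatocytes of their own library, Apoa2 stood at a log2 ratio of 0.38 at 24 h and 0.44 at 48 h, Apoc1 at 0.31 and 0.29, and Apoc3 at 0.34 and 0.48. Apoc1 was also above the gated cells at 96 h, by 0.088, whereas Apoa2 (-0.28) and Apoc3 (-0.15) were below them in that set, the one with the most barcodes. Apoa2, Apoc1 and Apoc3 were below the gated cells in the adult control, at -0.75, -0.71 and -0.62, and at P14, at -0.56, -0.25 and -0.55, which is what drew attention to the PHx values. The other 7 members were below the gated cells in all 5 libraries. Apob was the lowest after PHx, at -3.48, -3.47 and -3.37, against -1.40 in the control and -2.12 at P14. Apoa5 was at -1.95, -1.46 and -2.47 after PHx, Apoa4 at -1.42, -1.12 and -1.88, and Apoh at -0.81, -0.88 and -1.54. Apom (-0.11 and -0.16), Apoe (-0.13 and -0.33) and Apoa1 (-0.24 and -0.58) were closer to the gated cells at 24 h and 48 h. These low-mitochondrial barcodes were shallower than gated cells, with median depths of 6006 to 9788 UMIs. The difference between libraries has no replicate and was not tested.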

How the results depend on the processing

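No paired analysis was possible because each group has 1 library, and for the same reason no replicate could be left out. Of 40 member ratios to the control, 37 kept their sign under all 12 other settings. The exceptions were Apoc1 and Apoh at 48 h and Apob at P14, all near 0. None of the settings admitted barcodes above 30% mitochondrial UMIs, of which 96 h had 1701, so the effect of that limit was not tested. All 11 called ratios kept their sign and 9 kept the call. Apoa2 at P14 lost it with free RNA subtracted (0.95), and Apoc3 at P14 with 3 settings (-0.69 at the smallest). The number of members called went from 1 to 2 at 24 h with 10% to 20% mitochondrial UMIs (Apoc3, 1.03, with 87 control cells left). At 96 h it went from 1 to 2 in that range (Apoh, 1.01, with 53 cells) and with equal weight per cell (Apoa4, 1.03). The share of all genes called was not counted in these settings, so these counts have no background beside them.

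The median log2 ratio over members stayed above 0 in all 4 comparisons with the control. At 24 h (0.17) it was 0.21 with mitochondrial UMIs in the total, 0.23 with TMM, 0.25 with 0% to 30% and 0.22 with 10% to 20% mitochondrial UMIs, 0.20 with at least 10000 UMIs, 0.12 with free RNA subtracted, 0.077 with equal weight per cell and 0.15 without cells of 3 markers of another class. At 48 h (0.10) the same settings gave 0.14, 0.19, 0.19, 0.13, 0.084, 0.034, 0.14 and 0.13, and 0.14 without cells of 3 neutrophil markers. At 96 h (0.57) they gave 0.55 with TMM, 0.55 with 0% to 30%, 0.79 with 10% to 20%, 0.49 with free RNA subtracted and 0.64 with equal weight. At P14 (0.85) they gave 0.94 with mitochondrial UMIs, 1.19 with TMM, 0.89 with 0% to 30%, 0.91 with 10% to 20%, 0.82 with at least 10000 UMIs, 0.78 with free RNA subtracted and 0.92 with equal weight. From 24 h to 48 h it was 0.08, and -0.059 with 10% to 20% mitochondrial UMIs. With at least 5 mitosis genes the median of dividing over non-dividing cells at 48 h was -0.20 (-0.13 with 3), and with the outer quartiles of cells the portal over central median was -0.16 at P14 (-0.14) and 0.31 at 24 h (0.28). The cause of these shifts was not tested. The 2 settings that leave out cells with markers of another class were chosen after seeing the data. Apoa4, with 719 UMIs in the control, has the widest counting interval of the members.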
